A study of Mus musculus with 22 samples.

Results

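Bulk RNA sequencing was done on whole ovaries from the outbred CD1 mouse stock, and the ovary at 1 year of age (Y1) is set here against the young adult ovary of postnatal day 60 (P60). Each age had 2 libraries, so the comparison rests on 4 of the 22 libraries, which cover 11 ages between the fetus and 2 years (Y2). Libraries were taken by their age label, and genes were kept where at least 2 libraries of the table reached 1 FPKM (fragments per kilobase of transcript, scaled to the mapped fragments of the library), which left 16117 of 34745 genes. All animals were wild type and no treatment is named. Nothing in the labels tells if both libraries of an age are different mice or shared material, so every p-value below reflects library-to-library spread that could be purely technical. The labels also give no cycle stage, mating history, pregnancy or hour of dissection, and in these 4 libraries none of these can be told apart from age. The dissection text lists the other ages used here without naming Y1, whose age stands in the libraries' own labels.

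The ovary makes steroids in 3 cell compartments. Theca and interstitial cells turn cholesterol into androgens, granulosa cells around the oocyte turn these into estrogens, and after ovulation the follicle wall becomes the corpus luteum, which makes progesterone. Steroidogenic cells draw on cholesterol taken up from lipoproteins and on cholesterol they make themselves. In mice the store of follicles shrinks through adult life, cycles grow irregular in midlife and then stop, and immune cells and matrix of the ovary are known to change with age.

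Promoter sequence is shown for 3 of the 4 genes of the corpus luteum list that were called higher at Y1. It is the sequence in front of the transcripts described first. No promoter was available for Star, the other called gene. RefSeq windows on GRCm38.p6 run from 250 bases before to 50 bases after the transcript start and are printed on the gene's strand. Akr1c18 lies on the minus strand (chr13:4150597-4150896), Parm1 on the plus strand (chr5:91517450-91517749) and Fdx1 on the minus strand (chr9:51963553-51963852). Both strands were searched for the NR5A site AAGGTCA, the cAMP response element TGACGTCA and the TATA box TATAAA, and a match would be in capitals. These letters do not occur in the 3 windows.
Akr1c18: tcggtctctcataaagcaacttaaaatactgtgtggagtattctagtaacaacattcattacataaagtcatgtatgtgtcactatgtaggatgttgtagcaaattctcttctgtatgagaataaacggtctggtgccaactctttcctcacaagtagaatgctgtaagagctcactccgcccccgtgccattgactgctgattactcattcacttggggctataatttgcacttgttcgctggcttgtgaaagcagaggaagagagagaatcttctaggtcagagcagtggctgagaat
Parm1: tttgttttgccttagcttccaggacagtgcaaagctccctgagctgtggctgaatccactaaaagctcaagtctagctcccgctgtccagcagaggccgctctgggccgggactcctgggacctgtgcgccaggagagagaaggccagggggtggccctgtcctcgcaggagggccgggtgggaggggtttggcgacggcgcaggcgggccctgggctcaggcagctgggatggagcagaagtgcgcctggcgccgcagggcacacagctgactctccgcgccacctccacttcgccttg
Fdx1: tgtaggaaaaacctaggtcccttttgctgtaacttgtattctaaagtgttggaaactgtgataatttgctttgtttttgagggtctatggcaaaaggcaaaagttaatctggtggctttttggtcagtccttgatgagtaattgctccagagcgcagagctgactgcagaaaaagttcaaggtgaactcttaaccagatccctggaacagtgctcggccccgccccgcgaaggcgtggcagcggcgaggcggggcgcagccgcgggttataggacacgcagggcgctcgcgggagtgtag
Among all 27025 genes with a promoter in the table, 5.4% held AAGGTCA, 2.0% held TGACGTCA and 15.7% held TATAAA. Of the 14 genes of the corpus luteum list 10 had a promoter there, and 1 of them, Akr1b7, held AAGGTCA.

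Differences were tested with limma on log2(FPKM + 1), in 1 fit to all 22 libraries with age as a factor, with Benjamini-Hochberg adjustment across the 16117 genes. A gene is called at an adjusted p under 0.05. Log2 differences are Y1 minus P60 on this scale, which understates changes of genes near 1 FPKM, and folds are ratios of mean FPKM. At Y1 the depth, estimated from the steps between low FPKM values, was 16660000 and 15290000 reads, and at P60 it was 16600000 and 18140000 reads. Mitochondrial genes held 24.0% and 23.9% of all FPKM at Y1, against 19.5% and 18.9% at P60.

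Before the results, 2 features of the libraries need to be known. Y1 replicate 1 carried transcripts of fat cells: Adipoq, the fat cell hormone adiponectin, had 28.3 and 0.0818 FPKM in Y1 replicates 1 and 2, against 0 FPKM listed in both P60 libraries. Cfd, the fat cell protease adipsin, had 124 and 0.497 FPKM at Y1, again against 0 listed in both at P60. Over the 13 genes of a fat cell list, of which 12 were tested, FPKM summed to 369 and 83.4 at Y1 and to 69.8 and 76.3 at P60. None of the 12 was called, while 6 were called higher when Y1 replicate 2 was left out. The other feature is the 2-year group, which enters the shared spread. Between its 2 libraries 170 genes, with at least 10 FPKM in the higher one, were at least 4-fold apart in FPKM + 1. This count was 12 at Y1, 6 at P60 and 7 at P21. Genes of the corpus luteum and of cholesterol synthesis are among those that differ between the Y2 libraries, so results are also given for a fit without Y2. Apart from P60 and Y1, all ages in that fit are P21 or younger. Its p-values thus rest mostly on the spread between young ovaries and say little of the spread between adult ones.

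At Y1 718 genes (4.45% of those tested) rose against P60 and 1608 (9.98%) fell, 14.4% in all. Counts of called members in the lists below are to be read beside these shares. A difference of at least 1 on the log2 scale was reached by 231 of the higher and 270 of the lower genes, and a difference of at least 2 by 53 and 24. All 2326 called genes had Y1 and P60 libraries that did not overlap, as did 65.2% of all tested genes. The fit without Y2 called 1224 higher (7.59%) and 2638 lower (16.4%), and these included all 718 and all 1608 genes above. The median log2 difference over all genes was −0.09. Higher genes made up 30.9% of the calls here, 46.7% with libraries scaled by the median of ratios and 45.9% with quantiles equalized, but 23.4% with mitochondrial genes left out and the rest rescaled.

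**Figure D1:**
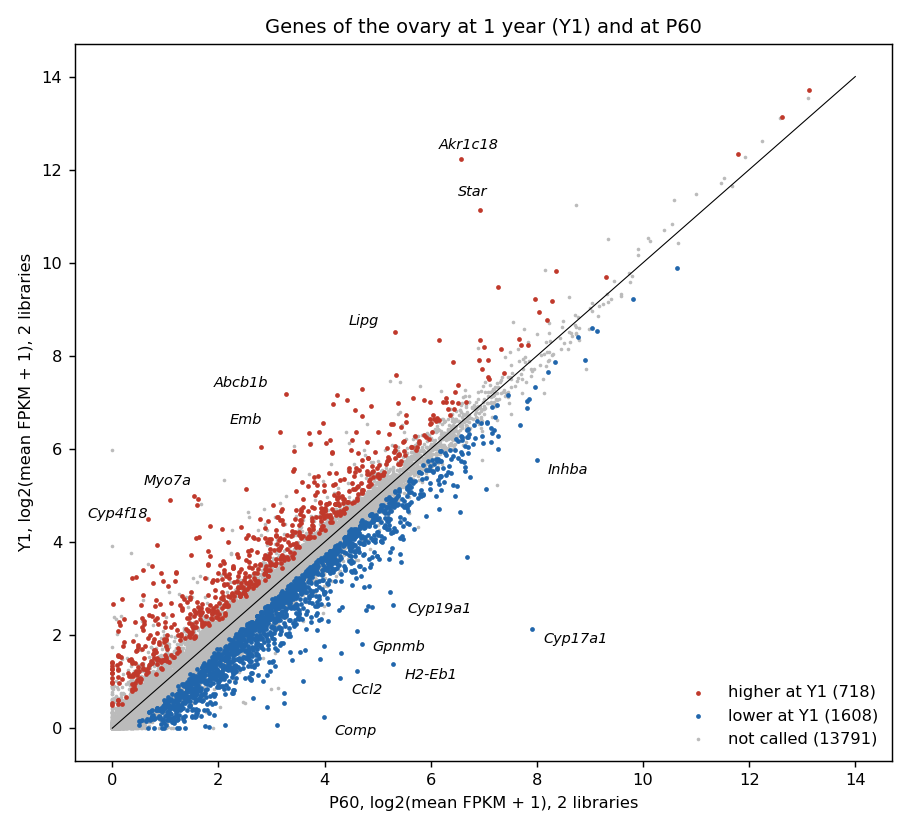
Each point is 1 of the 16117 tested genes, with log2(mean FPKM + 1) of 2 libraries at Y1 on the vertical axis and at P60 on the horizontal axis. Red points are the 718 genes called higher at Y1, blue points the 1608 called lower and grey points the 13791 not called; Akr1c18 and Star stand far above the diagonal, and Cyp17a1, Comp and H2-Eb1 far below it.

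Among steroid genes, transcripts for cholesterol import and progesterone breakdown rose, while that of the androgen enzyme fell. Akr1c18, the 20-alpha-hydroxysteroid dehydrogenase that inactivates progesterone in the rodent corpus luteum, had 5686 and 3848 FPKM at Y1, against 103 and 84.5 FPKM at P60. It rose 50.7-fold (log2 difference 5.63, SE 1.14, limma with Benjamini-Hochberg adjustment, adjusted p = 0.00461) and took 2.49% and 1.66% of all FPKM from nuclear genes at Y1, against 0.0461% and 0.0380% at P60. The gene spans chr13:4132615-4150654 on GRCm38. Star, which carries cholesterol into mitochondria and so starts steroid synthesis, had 2562 and 1914 FPKM at Y1, against 117 and 123 FPKM at P60. It rose 18.6-fold (log2 difference 4.19, SE 0.91, adjusted p = 0.00716), and without Y1 replicate 1 its adjusted p was 0.0604 at a log2 difference of 3.98. In bulk RNA more cells of a type and more RNA per cell cannot be told apart, here or for any list below.

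Fdx1, the ferredoxin that passes electrons to mitochondrial steroid enzymes, had 1036 and 765 FPKM at Y1, against 306 and 351 FPKM at P60 (adjusted p = 0.0378). Its adjusted p lay between 0.0740 and 0.224 when any 1 of the 4 libraries was left out. Parm1, a mucin-like membrane protein of the corpus luteum in rodents, rose 3.08-fold, with 30.0 and 20.5 FPKM at Y1 against 8.34 and 8.07 FPKM at P60 (adjusted p = 4.05e-05). Fdxr, the reductase that supplies Fdx1 with electrons, rose to 128 FPKM in both Y1 libraries, against 70.9 and 78.0 FPKM at P60 (adjusted p = 0.000312). Both partners of this electron chain were thus called higher.

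Enzymes that make pregnenolone and progesterone were not called. Cyp11a1, which cuts the cholesterol side chain, had 1618 and 1303 FPKM at Y1, against 621 and 678 FPKM at P60 (adjusted p = 0.106). Hsd3b1, which makes progesterone from pregnenolone, had 2815 and 2359 FPKM at Y1, against 1493 and 1561 FPKM at P60 (adjusted p = 0.222). For both genes the libraries of the 2 ages did not overlap, which held for 65.2% of all tested genes. Without Y2 in the fit Cyp11a1 was called (adjusted p = 0.00156) and Hsd3b1 was not (adjusted p = 0.157).

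Receptors of the corpus luteum went different ways in their values, and none was called with Y2 in the fit. Ptgfr, the receptor for prostaglandin F2 alpha, had 176 and 172 FPKM at Y1, against 40.2 and 32.8 FPKM at P60 (adjusted p = 0.281, and 1.48e-07 without Y2). Prlr, the prolactin receptor, had 57.2 and 47.3 FPKM at Y1, against 30.2 and 32.2 FPKM at P60 (adjusted p = 0.320, and 0.000633 without Y2). Lhcgr, the luteinizing hormone receptor of theca, mural granulosa and luteal cells, lay on the other side, with 40.9 and 31.9 FPKM at Y1 against 137 and 166 FPKM at P60 (adjusted p = 0.0784, and 2.09e-05 without Y2). Scarb1, the receptor for cholesterol-rich lipoprotein, had 201 and 143 FPKM at Y1, against 42.7 and 40.8 FPKM at P60 (adjusted p = 0.0649, and 6.76e-07 without Y2). Within each age the 2 libraries of these receptors lay close together.

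Over the whole corpus luteum list 4 of 14 genes were called higher and none lower, with a median log2 difference of 1.30 beside −0.09 over all genes. Without Y2 10 were called higher and Lhcgr lower, and a fit to P60, Y1 and Y2 alone called none. A fit to the 4 compared libraries alone called 9 higher and 1 lower. Leaving out 1 of the 4 libraries gave 2 higher without Y1 replicate 1 and 3 without each of the others. Hsd17b7, an enzyme of the pregnant corpus luteum that also takes part in cholesterol synthesis, was at a similar level, with 31.6 and 25.3 FPKM at Y1 and 24.8 and 27.5 FPKM at P60 (adjusted p = 0.987). Sfrp4, a secreted Wnt antagonist, had 1907 and 2926 FPKM at Y1, against 466 and 383 FPKM at P60 (adjusted p = 0.292).

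**Figure D2:**
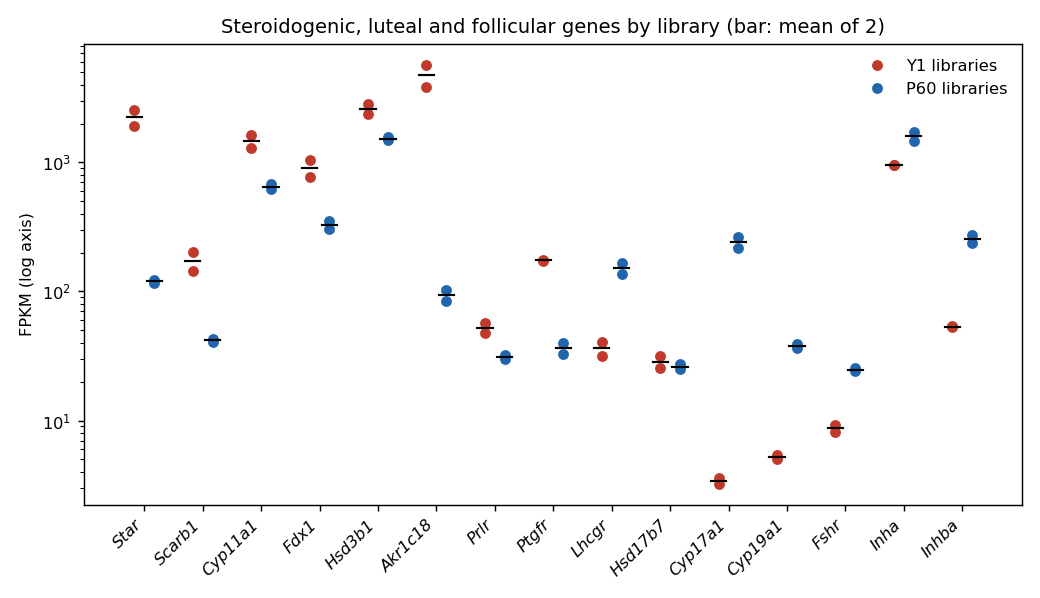
FPKM on a log axis for 15 steroidogenic, luteal and follicular genes, with a red point for each Y1 library, a blue point for each P60 library and a bar for the mean of 2. Akr1c18 and Star are far higher at Y1 than at P60, Hsd17b7 overlaps, and Lhcgr, Cyp17a1, Cyp19a1, Fshr, Inha and Inhba lie lower at Y1.

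Genes of cholesterol synthesis and uptake all had higher means at Y1. For all 19 tested members the log2 difference was above 0, between 0.47 and 2.80, with a median of 1.37. The fit called 4 of them higher, among them Fdps, Msmo1 and Pmvk, and a fit to P60, Y1 and Y2 alone called none. In a fit to the 4 compared libraries alone 16 were called higher. Without Y2 all 19 were called, and without each of Y1 replicate 2, P60 replicate 1 and P60 replicate 2 only 1 was, while without Y1 replicate 1 none was. Pmvk had adjusted p = 0.0407, and 0.127 to 0.174 without any 1 library. Direction was thus common to the list, and the count of calls depended on the libraries in the fit.

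Fdps, which makes farnesyl diphosphate, had 135 and 112 FPKM at Y1, against 16.5 and 17.2 FPKM at P60 (adjusted p = 0.0483, and 0.130 to 0.205 without any 1 library). In the gene models 26.2% of its 50-base words also occur in other genes, so its level is uncertain. Msmo1, a sterol demethylating oxidase, had 34.0 and 32.3 FPKM at Y1, against 12.2 and 7.66 FPKM at P60 (adjusted p = 0.0197, kept without P60 replicate 1 at 0.0430, and 0.0757 to 0.159 without the others). Dhcr7, the last enzyme before cholesterol, was not called, with 82.8 and 54.1 FPKM at Y1 against 12.5 and 12.2 FPKM at P60 (adjusted p = 0.110, and 6.68e-06 without Y2). Y1 and P60 libraries of these 3 genes did not overlap, as for 65.2% of all tested genes.

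Several of the largest increases lie outside the lists above. Abcb1b, a drug and steroid efflux pump known from steroid-making tissue, had 183 and 105 FPKM at Y1, against 9.35 and 8.09 FPKM at P60, a 16.5-fold rise (adjusted p = 0.000704). Of its 50-base words 11.6% occur in other genes. Cyp4f18, a cytochrome P450 that hydroxylates leukotriene B4 and fatty acids, rose 25.5-fold, with 38.7 and 19.0 FPKM at Y1 against 1.34 and 0.926 FPKM at P60 (adjusted p = 2.29e-07). Emb, a membrane glycoprotein that escorts monocarboxylate transporters, rose 10.3-fold to 96.2 and 67.3 FPKM at Y1, against 8.21 and 7.71 FPKM at P60 (adjusted p = 0.000887).

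Myo7a, an unconventional myosin best known from hair cells of the inner ear, had 31.2 and 30.1 FPKM at Y1, against 1.95 and 1.85 FPKM at P60 (16.1-fold, adjusted p = 0.000154). Its Y1 libraries differed little from each other. Rgcc, a regulator of the cell cycle, had 134 and 151 FPKM at Y1, against 21.1 and 14.8 FPKM at P60 (7.94-fold, adjusted p = 0.00105). Lipg, the endothelial lipase that acts on phospholipids of high density lipoprotein, had 374 and 350 FPKM at Y1, against 40.3 and 38.1 FPKM at P60 (9.25-fold, adjusted p = 0.0249, and 0.0909 to 0.125 without any 1 library). Cd7, a surface protein of T and NK cells, differed more between replicates, with 37.7 and 91.1 FPKM at Y1 against 8.38 and 3.57 FPKM at P60 (10.8-fold, adjusted p = 9.51e-05). Pcdhgb4 had 3.89 and 24.9 FPKM at Y1, against 0.324 and 1.28 FPKM at P60 (adjusted p = 0.0238), but 41.5% of its words occur in other genes. Without Y1 replicate 2 its adjusted p was 0.239, without P60 replicate 1 0.162 and without P60 replicate 2 0.0627.

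The androgen enzyme of the theca fell to a low level. Cyp17a1, which turns progestins into androgens and whose transcript marks theca and interstitial cells in the mouse ovary, had 3.58 and 3.23 FPKM at Y1, against 217 and 264 FPKM at P60. It fell 70.6-fold (log2 difference −5.77, SE 0.24, adjusted p = 3.61e-09), the largest fall on the log2(FPKM + 1) scale among called genes that reach a group mean of 10 FPKM. The call was kept in all 15 alternative fits. It spans chr19:46667165-46673172 on GRCm38.

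Insl3, a peptide hormone of theca and Leydig cells, had 6.43 and 6.31 FPKM at Y1, against 16.7 and 13.1 FPKM at P60 (adjusted p = 0.0114). Its words are shared with other genes at 61.8%, and without Y1 replicate 1, Y1 replicate 2 or P60 replicate 1 its adjusted p was 0.0673, 0.0586 or 0.105. Several other genes of theca and interstitium were not called. Nr5a1, the steroidogenic factor 1, had 46.6 and 45.1 FPKM at Y1, against 51.4 and 58.4 FPKM at P60 (adjusted p = 0.431). Gli1 and Ptch1, read-outs of hedgehog signals from granulosa cells to theca, had adjusted p of 0.101 and 0.518. Of 10 tested members of the list 1 (Fdxr) was called higher and 2 lower, with a median of −0.19, close to the −0.09 over all genes.

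Most granulosa genes fell. Of 20 tested members 12 were called lower and none higher, with a median log2 difference of −0.74. The count was 15 without Y2, 8 without Y1 replicate 1, 9 without Y1 replicate 2 and 8 without either P60 library, and 10 after median-of-ratios scaling. FPKM over the list summed to 2180 and 2307 at Y1, against 3720 and 4026 at P60.

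Cyp19a1, the aromatase that makes estrogens in antral follicles, had 5.39 and 5.05 FPKM at Y1, against 36.8 and 39.1 FPKM at P60. It fell 7.26-fold (log2 difference −2.64, SE 0.60, adjusted p = 0.00901), with adjusted p between 0.05 and 0.0611 when 1 library was left out. Inhba, a subunit of activin A and inhibin A, had 54.0 and 52.8 FPKM at Y1, against 237 and 272 FPKM at P60, a 4.77-fold fall (adjusted p = 0.00125). Both genes are known to be high in large follicles. Inha, the alpha subunit of the inhibins, fell less, with 948 and 953 FPKM at Y1 against 1465 and 1715 FPKM at P60 (adjusted p = 0.00122).

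Fshr, the follicle stimulating hormone receptor of granulosa cells, had 9.18 and 8.22 FPKM at Y1, against 24.1 and 25.5 FPKM at P60 (2.85-fold lower, adjusted p = 1.77e-06). Fst, which binds and blocks activin, had 68.5 and 57.8 FPKM at Y1, against 152 and 155 FPKM at P60 (adjusted p = 0.00057). Hsd11b2, which inactivates glucocorticoids, had 11.8 and 13.1 FPKM at Y1, against 44.2 and 39.0 FPKM at P60 (adjusted p = 2.53e-05). These 3 calls were kept when any 1 library was left out. Amh, the hormone of granulosa cells in small growing follicles, had 32.4 and 28.4 FPKM at Y1, against 52.8 and 42.0 FPKM at P60, and was not called (adjusted p = 0.101, and 0.0204 without Y2). Kitl, the granulosa ligand for the oocyte receptor Kit, overlapped between ages, with 4.52 and 3.91 FPKM at Y1 and 4.87 and 3.95 FPKM at P60.

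Grem1 and Mro are further somatic genes among the largest falls. Grem1, which antagonizes bone morphogenetic proteins and is known from cumulus and granulosa cells, had 3.13 and 3.43 FPKM at Y1, against 22.5 and 24.3 FPKM at P60 (7.15-fold lower, adjusted p = 8.56e-06). Mro, or maestro, had 0.872 and 1.17 FPKM at Y1, against 11.3 and 10.8 FPKM at P60 (10.9-fold lower, adjusted p = 2.41e-06). Sema3d, a secreted semaphorin, had 1.32 and 2.77 FPKM at Y1, against 20.3 and 17.3 FPKM at P60 (9.20-fold lower, adjusted p = 0.000109). For Grem1 and Mro the libraries of each age lay close together and far from the other age. The Y1 libraries of Sema3d, at 1.32 and 2.77 FPKM, lay further apart, but both were far below its P60 libraries.

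Genes of ovulation were mixed: of 12 tested members 1 rose and 4 fell, with a median of −0.04. Of all tested genes 4.45% rose and 9.98% fell. Without Y2 4 members rose and 4 fell, beside 7.59% and 16.4% of all tested genes. Leaving out Y1 replicate 2 gave 2 higher and 3 lower, and leaving out any other of the 4 libraries gave 1 higher and 2 lower. Edn2, a vasoconstrictor peptide made briefly by granulosa cells at follicle rupture, had 2.00 and 1.30 FPKM at Y1, against 0 and 0.226 FPKM at P60 (adjusted p = 0.000196). Cd44, a hyaluronan receptor, had 1.47 and 1.75 FPKM at Y1, against 6.20 and 5.12 FPKM at P60 (adjusted p = 6.95e-06). Runx2, a transcription factor of luteinizing cells, had 13.1 and 11.7 FPKM at Y1, against 3.91 and 3.56 FPKM at P60 (adjusted p = 0.129, and 1.89e-07 without Y2). Ptgs2, Areg, Btc, Pgr, Il6 and Snap25 did not pass the filter and were not tested, so the acute surge genes are covered in part.

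Most genes of the growing oocyte fell. Of 25 tested members 18 fell and none rose, with a median log2 difference of −1.08. A fit to P60, Y1 and Y2 alone called none of them. Summed FPKM was 140.8 and 164 at Y1, against 378 and 375 at P60. Zp3, a zona pellucida protein, had 11.1 and 11.8 FPKM at Y1, against 33.0 and 38.8 FPKM at P60 (3.13-fold lower, adjusted p = 0.0227). Its call was lost when any 1 of the 4 libraries was left out. Gdf9, the growth factor by which oocytes act on granulosa cells, had 11.5 and 12.5 FPKM at Y1, against 30.6 and 30.8 FPKM at P60 (2.56-fold lower, adjusted p = 0.0351, and 0.103 to 0.169 without any 1 library). Zp2, another zona pellucida protein, had 15.3 and 16.2 FPKM at Y1, against 43.6 and 44.1 FPKM at P60 (adjusted p = 0.0242, and 0.0848 to 0.128 without any 1 library). The P60 libraries of these genes exceeded those of Y1 in each case.

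The count of calls in the growing oocyte list depended on the libraries and on the handling of low values. It was 7 with a pseudocount of 0.1, 13 with 0.5 and 11 with no filter on low values. Leaving out Y1 replicate 1, Y1 replicate 2, P60 replicate 1 or P60 replicate 2 gave 3, 7, 4 or 6 members lower, and leaving out Y2 gave 21. The log2 difference was below 0 for 24 of 25 members, the exception being Khdc3, a maternal effect gene, with 1.78 and 2.31 FPKM at Y1 and 1.25 and 1.57 FPKM at P60 (adjusted p = 0.451). Npm2, a histone chaperone of the egg, and Dazl, an RNA-binding protein of germ cells, were called in each of these fits. Dazl had 0.569 and 0.668 FPKM at Y1, against 3.04 and 2.13 FPKM at P60 (adjusted p = 0.000437). Ddx4, the germ cell helicase, had 0.567 and 1.0801 FPKM at Y1, against 1.96 and 2.37 FPKM at P60 (adjusted p = 0.00294, and 0.0520 without Y1 replicate 1).

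Among genes of primordial and early follicles, the transcription factors Nobox and Figla were low at both ages. Nobox, which oocytes need to leave the primordial stage, had 1.69 and 2.64 FPKM at Y1, against 4.47 and 4.88 FPKM at P60 (adjusted p = 0.0385). Without Y1 replicate 1, P60 replicate 1 or P60 replicate 2 this was 0.276, 0.121 or 0.172. Figla, which drives zona pellucida genes, had 0.372 and 0.814 FPKM at Y1, against 1.24 and 2.22 FPKM at P60, and was not called (adjusted p = 0.0759). Of 10 members 6 fell, with a median of −0.61; 2 were called without Y1 replicate 1 or P60 replicate 2, 3 without P60 replicate 1 and 8 without Y2. The largest difference was that of Ddit4l, an inhibitor of mTOR signalling, with 15.2 and 16.6 FPKM at Y1 against 38.2 and 45.6 FPKM at P60 (adjusted p = 0.000142).

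The chemokine transcripts Ccl2, Ccl7 and Cxcl1 fell. Ccl2 and Ccl7, neighbouring genes for chemokines that draw monocytes, behaved alike. Ccl2 had 0.909 and 1.30 FPKM at Y1, against 24.0 and 13.2 FPKM at P60, a 16.8-fold fall, and Ccl7 had 1.12 and 1.55 FPKM at Y1, against 31.8 and 15.1 FPKM at P60, a 17.5-fold fall (adjusted p = 4.33e-05 for each). Cxcl1, a chemokine for neutrophils, fell 12.2-fold, with 0.784 and 0.603 FPKM at Y1 against 10.5 and 6.37 FPKM at P60 (adjusted p = 1.82e-05). For all 3 P60 replicate 1 was well above P60 replicate 2, and both P60 libraries lay above both Y1 libraries. The cytokine Il1b had 0.432 and 0.418 FPKM at Y1, against 3.06 and 1.85 FPKM at P60 (adjusted p = 0.00139). Saa3, an acute phase protein, had 8.90 and 14.8 FPKM at Y1, against 124 and 79.8 FPKM at P60 (8.59-fold lower, adjusted p = 0.0298, and 0.0723 to 0.182 without any 1 library). These were the 2 genes called among 9 tested of neutrophils and acute inflammation, with a median of −0.64.

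Of 20 macrophage genes 9 fell and none rose, with a median of −0.69. The count was 13 without Y2 and 2 in a fit to the 4 libraries alone, and it was 3, 9, 6 or 4 without Y1 replicate 1, Y1 replicate 2, P60 replicate 1 or P60 replicate 2. Gpnmb, a glycoprotein of lipid-laden and phagocytic macrophages, had 2.23 and 2.79 FPKM at Y1, against 19.7 and 30.5 FPKM at P60 (9.99-fold lower, adjusted p = 8.42e-05). Atp6v0d2, a proton pump subunit of macrophages and osteoclasts, had 1.70 and 1.89 FPKM at Y1, against 11.0 and 17.4 FPKM at P60 (7.89-fold lower, adjusted p = 1.6e-05). Calls of both genes were kept without any 1 library. Cd5l, a secreted macrophage protein that binds lipids, had 0.499 and 0.418 FPKM at Y1, against 2.09 and 3.51 FPKM at P60 (adjusted p = 0.00458, and 0.0667 without P60 replicate 2).

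The other 7 called members were Cd14, Fcgr1, Fcgr3, Fcer1g, Tyrobp, Ctss and Mpeg1, which act in immune receptor signalling, protein breakdown and killing of microbes. Tyrobp, an adaptor of activating receptors, had 25.8 and 41.2 FPKM at Y1, against 69.1 and 74.8 FPKM at P60 (adjusted p = 0.00567, and 0.0891 without Y1 replicate 1). Members that were not called include widely used macrophage markers. Adgre1, the F4/80 antigen, had 4.46 and 5.22 FPKM at Y1, against 6.14 and 6.79 FPKM at P60 (adjusted p = 0.179, and 0.0344 without Y2). Cd68, a lysosomal protein of macrophages, had 13.4 and 17.8 FPKM at Y1, against 24.4 and 26.2 FPKM at P60 (adjusted p = 0.149). Aif1 and Cd163 overlapped between ages.

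Among genes that present antigen to CD4 T cells 1 stood apart. H2-Eb1, a beta chain of the class II molecule, had 1.57 and 1.60 FPKM at Y1, against 29.6 and 47.1 FPKM at P60, a 24.2-fold fall (log2 difference −3.89, SE 0.22, adjusted p = 1.39e-07). It spans chr17:34305867-34316674 on GRCm38 and was called in all 15 alternative fits. H2-Aa, the alpha chain of another class II molecule, had 9.85 and 12.9 FPKM at Y1, against 21.5 and 33.9 FPKM at P60 (2.43-fold lower, adjusted p = 0.0156, and 0.137 or 0.164 without Y1 replicate 1 or P60 replicate 2). Its partner H2-Ab1 was not called, with 15.6 FPKM in both Y1 libraries against 17.9 and 32.8 FPKM at P60 (adjusted p = 0.110). Cd74, the invariant chain that guides class II molecules, had 63.6 and 76.3 FPKM at Y1, against 88.8 and 189.9 FPKM at P60 (adjusted p = 0.0337, and 0.209, 0.0698 or 0.356 without Y1 replicate 1, Y1 replicate 2 or P60 replicate 2). In the 8 tested genes of the list 3 fell and none rose, with a median of −0.55, and the count was 1, 2, 4 or 1 without Y1 replicate 1, Y1 replicate 2, P60 replicate 1 or P60 replicate 2. CD1 mice are outbred, and whether the animals differed in their class II haplotype was not tested.

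T and NK cell genes were low, and 5 of 10 tested members fell, with a median of −0.72. The count was 3 without either Y1 library, 2 without P60 replicate 1, 4 without P60 replicate 2 and 2 with a pseudocount of 0.1. Il7r, the interleukin 7 receptor, had 0.541 and 0.816 FPKM at Y1, against 3.4997 and 3.99 FPKM at P60 (adjusted p = 3.58e-05). Gzmb, a killer cell protease, had 0.169 and 0.231 FPKM at Y1, against 2.50 and 1.43 FPKM at P60 (adjusted p = 0.0018). Cd3g, a subunit of the T cell receptor complex, overlapped, with 0.806 and 2.35 FPKM at Y1 and 1.66 and 1.56 FPKM at P60. Cd7, a surface protein of T and NK cells outside this list, was called higher, as given above. The interferon and class I list had a median of −0.53, and 1 of its 21 members was called lower, beside 9.98% of all tested genes. This was B2m, the light chain of class I molecules (335 and 403 FPKM at Y1, against 569 and 550.0 FPKM at P60, adjusted p = 0.0156). Without Y1 replicate 1, P60 replicate 1 or P60 replicate 2 its adjusted p was 0.162, 0.0943 or 0.0733.

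The antibody transcripts Igkc, Igha and Jchain rose. Igkc, the constant region of the kappa light chain, had 50.03 and 85.7 FPKM at Y1, against 11.3 and 13.3 FPKM at P60 (5.51-fold higher, adjusted p = 0.000557). Igha, the heavy chain of immunoglobulin A, had 7.77 and 10.3 FPKM at Y1, against 1.12 and 1.47 FPKM at P60 (7.01-fold higher, adjusted p = 2.59e-05). Jchain, which joins immunoglobulin A and M into polymers, had 1.83 and 6.45 FPKM at Y1, against 0.608 and 0.978 FPKM at P60 (adjusted p = 0.0198, and 0.209, 0.133 or 0.0641 without Y1 replicate 2, P60 replicate 1 or P60 replicate 2). Y1 replicate 2 held the higher level of each of the 3.

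Of 14 tested genes of B and plasma cells 8 rose and 1 fell, with a median of 0.86. Leaving out Y1 replicate 1 gave 9 higher, Y1 replicate 2 4, and either P60 library 5. Sdc1, syndecan 1, was the member with the largest difference, at 141.8 and 123 FPKM at Y1 against 22.6 and 18.6 FPKM at P60 (6.42-fold higher, adjusted p = 0.00297). It marks plasma cells and is also made by epithelial and other cells, and its FPKM exceeded those of Igkc. Xbp1, the transcription factor of secretory cells, fell, with 30.0 and 33.9 FPKM at Y1 against 50.3 and 50.1 FPKM at P60 (adjusted p = 0.000175). Ms4a1, a surface marker of B cells, did not pass the filter.

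Complement genes were divided, with 2 of 17 higher, 4 lower and a median of −0.20. C3, the central component, had 90.6 and 48.8 FPKM at Y1, against 30.8 and 23.2 FPKM at P60 (adjusted p = 0.0183, and 0.214 or 0.142 without Y1 replicate 1 or P60 replicate 2). C7, a component of the membrane attack complex, had 2.38 and 2.44 FPKM at Y1, against 12.9 and 16.7 FPKM at P60 (6.14-fold lower, adjusted p = 8.86e-05). The count of higher members was 0 without Y1 replicate 1 or P60 replicate 2, 1 without P60 replicate 1 and 3 without Y1 replicate 2. C1qa, C1qb and C1qc, which start the classical pathway and are made by macrophages, were not called.

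The fibrillar collagens Col1a1 and Col3a1 fell. Of 22 matrix genes 12 were called lower and none higher, with a median of −0.69, and the count stayed between 8 and 10 when 1 of the 4 libraries was left out. Col1a1, the main chain of fibrillar collagen, had 87.7 and 78.9 FPKM at Y1, against 144 and 146 FPKM at P60 (1.74-fold lower, adjusted p = 0.00633, and 0.0523 without Y1 replicate 2). Col3a1, which is mixed into the same fibrils, had 149 and 119 FPKM at Y1, against 243 and 217 FPKM at P60 (1.72-fold lower, adjusted p = 0.00262). Col4a1 and Col4a2, the chains of basement membrane, overlapped between the ages, as did Sparc and Dcn. The statement covers these 4 chains only, and fibrillar and basement membrane collagens were not tested against each other.

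Comp, cartilage oligomeric matrix protein, fell furthest in fold among the named genes, with 0.123 and 0.243 FPKM at Y1 against 13.3 and 16.4 FPKM at P60 (81.0-fold lower, log2 difference −3.74, SE 0.17, adjusted p = 1.37e-08). Ogn, the small proteoglycan osteoglycin, had 91.9 and 87.7 FPKM at Y1, against 197 and 212.2 FPKM at P60 (adjusted p = 0.000276). Postn, or periostin, had 0.955 and 1.30 FPKM at Y1, against 4.75 and 3.32 FPKM at P60 (adjusted p = 0.0474, and 0.102 to 0.247 without any 1 library). Among 14 matrix proteases and inhibitors 3 rose and 3 fell, and 1 of the inhibitors had the largest difference, with a median of −0.29 over the list. Without 1 of the libraries 1 or 2 rose and 1 to 3 fell, the lowest counts being 1 lower without Y1 replicate 1 and 1 higher without any other. Timp1, which blocks matrix metalloproteinases, had 382 and 262 FPKM at Y1, against 75.4 and 64.5 FPKM at P60 (adjusted p = 0.000706). Plat, the tissue plasminogen activator, had 16.4 and 22.3 FPKM at Y1, against 49.1 and 37.9 FPKM at P60 (adjusted p = 0.000567).

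Dividing cells and markers of arrest gave small or divided values. Mki67, a protein of cycling cells, had 12.6 and 14.1 FPKM at Y1, against 19.7 and 16.6 FPKM at P60 (adjusted p = 0.477). All 26 cell cycle genes had log2 differences below 0, with a median of −0.30, and 7 were called lower. Only 1 was called after median-of-ratios scaling or quantile normalization, 4 in a fit to the 4 libraries alone, and 1 to 3 when 1 library was left out. Aurka, a mitotic kinase, had 3.48 and 3.49 FPKM at Y1, against 5.46 and 5.41 FPKM at P60 (adjusted p = 0.0344, and 0.117 to 0.147 without any 1 library).

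Cdkn1a, the cell cycle inhibitor p21, overlapped, with 8.25 and 11.7 FPKM at Y1 and 9.41 and 9.53 FPKM at P60 (adjusted p = 0.897). Cdkn2a, the senescence locus for p16 and Arf, was low and overlapped as well, with 0.638 and 1.07 FPKM at Y1 and 2.18 and 0.821 FPKM at P60 (adjusted p = 0.259). Its neighbour Cdkn2b, the inhibitor p15, had 68.1 and 54.4 FPKM at Y1, against 10.7 and 8.60 FPKM at P60 (6.33-fold higher, adjusted p = 0.000389). Of 14 tested genes of senescence and p53 1 rose and 3 fell, and the falling ones were Ccl2, Cxcl1 and Glb1, with a median of −0.25. Without Y2 5 fell.

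Immediate early and heat shock genes had a median of −0.52, with 6 of 17 lower and 1 higher. Atf3, a stress transcription factor, had 1.07 and 1.61 FPKM at Y1, against 7.05 and 6.56 FPKM at P60 (5.07-fold lower, adjusted p = 0.00136). Hsph1, a heat shock chaperone, had 16.8 and 13.7 FPKM at Y1, against 30.3 and 34.7 FPKM at P60 (adjusted p = 0.000201). Fos, known to respond within minutes to handling of tissue, had 1.42 and 1.24 FPKM at Y1, against 3.97 and 4.15 FPKM at P60, and was not called (adjusted p = 0.211). The part of dissection in these values was not tested.

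Metallothioneins Mt1 and Mt2, which bind zinc and copper, were called higher: Mt1 had 302 and 280.1 FPKM at Y1, against 128 and 127 FPKM at P60 (adjusted p = 0.0474, and 0.129 to 0.202 without any 1 library). Mt2 had 252 and 214 FPKM at Y1, against 84.5 and 83.7 FPKM at P60 (adjusted p = 0.0399, and 0.102 to 0.197 without any 1 library), and 73.5% of its exon bases overlap a gene on the other strand. Neither was called after quantile normalization. The antioxidant list had a median of 0.10, with 5 higher and 4 lower without Y2. That fit called 7.59% of all tested genes higher and 16.4% lower. Of 23 antioxidant genes these 2 rose and 1 fell, Gsta4, a glutathione transferase that detoxifies lipid aldehydes (adjusted p = 0.00335). None of 20 nuclear genes of the respiratory chain was called, and their median was 0.01, while 2 were called higher without Y2. Psap, the precursor of the saposins, was the single call among 17 lysosome genes, with 830.2 and 822 FPKM at Y1 against 596 and 667 FPKM at P60 (adjusted p = 0.00494, and 0.0732 without P60 replicate 1), in a list with a median of −0.01. Without Y2 4 lysosome genes were called higher and 4 lower, with mitochondrial genes left out 1 higher and 3 lower, and with quantile normalization none.

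Vessel, muscle and surface lists served as a check for other cell types. Of all tested genes 4.45% were called higher and 9.98% lower, and without Y2 7.59% and 16.4%. In the endothelial list of 17 genes 1 fell, Angpt2, a vessel-destabilizing ligand, with 9.93 and 10.6 FPKM at Y1 against 22.5 and 26.4 FPKM at P60 (adjusted p = 0.00113). Pecam1, the endothelial marker CD31, had 8.98 and 8.44 FPKM at Y1 and 6.68 and 6.53 FPKM at P60 (adjusted p = 0.175). The median of this list was 0.11. In smooth muscle and pericytes 1 of 13 rose and 1 fell, with a median of −0.22, and without Y1 replicate 1 or P60 replicate 1 none was called. The surface epithelium list had a median of 0.36 with 1 of 13 higher, Upk1b, a uroplakin (3.92 and 2.70 FPKM at Y1, against 1.56 and 1.12 FPKM at P60, adjusted p = 0.0386, and 0.0521 to 0.267 without any 1 library). In that list 12 of 13 log2 differences were above 0, and without Y2 6 were called higher, against 3 higher and 2 lower in the endothelial list.

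Lists for neighbouring tissues were short, and their calls stand beside the 4.45% of all tested genes called higher. Of 10 oviduct genes, with a median of 0.12, 2 were called higher, Ccdc153 of ciliated cells and Ovgp1, the oviduct glycoprotein, whose words are shared at 26.6%. Ovgp1 had 2.46 and 1.74 FPKM at Y1, against 0.763 and 0.780 FPKM at P60 (adjusted p = 0.0100, and 0.120, 0.0641 or 0.0598 without Y1 replicate 1, P60 replicate 1 or P60 replicate 2). Ccdc153 had 1.65 and 0.482 FPKM at Y1, against 0.0553 and 0.202 FPKM at P60 (adjusted p = 0.0471, and 0.440, 0.222 or 0.120 without Y1 replicate 1, P60 replicate 1 or P60 replicate 2). Pax8, a defining factor of oviduct epithelium, reached at most 0.138 FPKM in the 4 libraries. Cyp11b1, Cyp11b2 and Cyp21a1, which mark the adrenal cortex, did not pass the filter. The other 2 genes of the adrenal list were tested and not called (median 0.88). One of them is Mrap, the partner of melanocortin receptors, with 107 and 75.9 FPKM at Y1 against 28.7 and 25.3 FPKM at P60 (adjusted p = 0.0581, and 8.21e-05 without Y2). The other, the corticotropin receptor Mc2r, reached at most 0.115 FPKM in the 4 libraries. None of 9 genes of red blood cells was called (median −0.04). The part of fat, oviduct, adrenal or blood cells in the differences above was not tested, apart from the values without Y1 replicate 1.

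**Figure D3:**
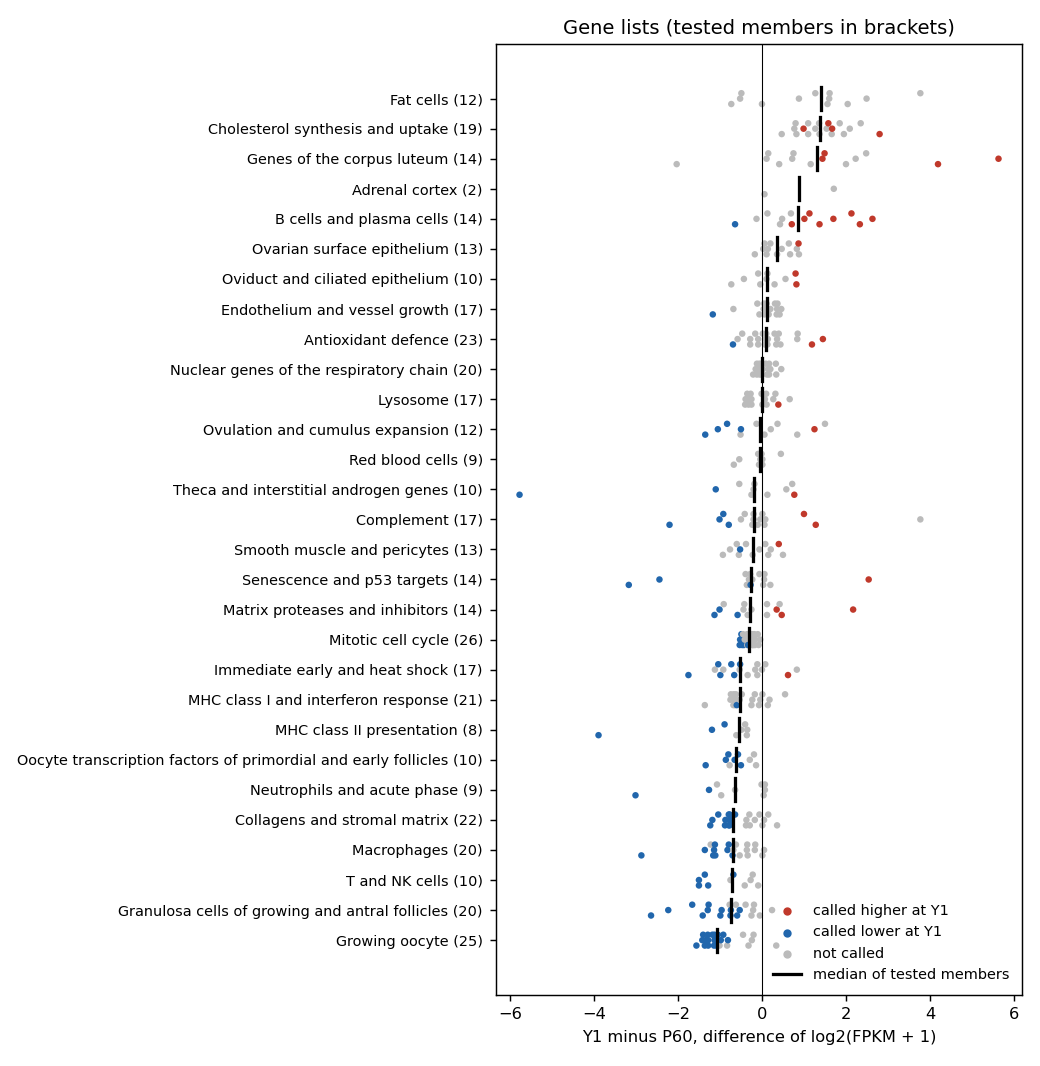
Points are the log2 differences, Y1 minus P60, of the tested members of each list, red where called higher at Y1, blue where called lower and grey where not called, with a black bar at the list's median. Lists run from the highest median at the top (fat cells, cholesterol synthesis, corpus luteum) to the lowest at the bottom (granulosa cells, growing oocyte).

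Setting the 2-year ovary beside the 1-year ovary shows which levels held. Against Y1, 1946 genes (12.1%) rose and 1575 (9.77%) fell at Y2, in the same fit. The comparison shares the Y1 libraries with the one above, so the 2 are given side by side only. Akr1c18 had 2.97 and 219 FPKM at Y2, against 5686 and 3848 FPKM at Y1 (log2 difference −7.31, adjusted p = 0.000298). Star differed widely between the Y2 libraries, with 123 and 3275 FPKM, and was not called (adjusted p = 0.187). Y2 replicate 2 was high for Star, Dhcr7 and Hsd17b7, the last at 5.62 and 1441 FPKM in Y2 replicates 1 and 2.

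Cyp17a1 stayed low, with 3.93 and 4.20 FPKM at Y2 (adjusted p = 0.622 against Y1). Fshr fell further to 3.67 and 4.26 FPKM at Y2 (log2 difference −0.97, adjusted p = 1.57e-05), and Col1a1 fell to 20.5 and 26.6 FPKM (log2 difference −1.79, adjusted p = 2.81e-06). Zp3 was not called, with 13.4 and 2.40 FPKM at Y2 (adjusted p = 0.186). In both Y2 libraries these genes thus lay below their P60 levels.

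H2-Eb1, Gpnmb and Igkc were higher at Y2 than at Y1. H2-Eb1 rose to 177 and 119 FPKM at Y2 (log2 difference 5.82 against Y1, adjusted p = 1.66e-10), above its P60 level. Gpnmb rose to 80.7 and 24.99 FPKM at Y2 (log2 difference 3.72, adjusted p = 2.62e-06). Igkc reached 1994 and 1079.5 FPKM at Y2 (log2 difference 4.46, adjusted p = 4.51e-07). Cdkn2b fell to 1.33 and 6.49 FPKM at Y2 (log2 difference −3.89, adjusted p = 3.01e-06).

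**Figure D4:**
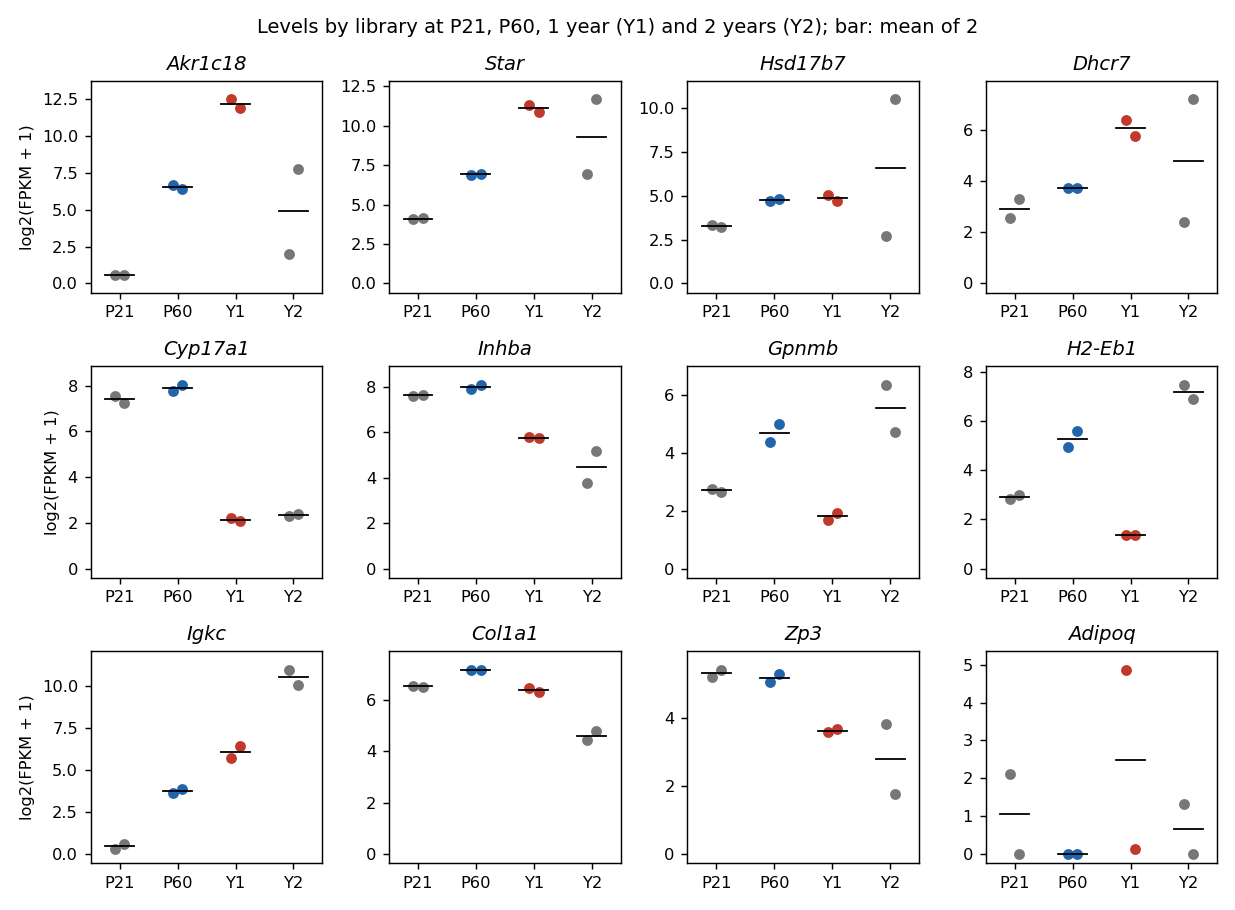
Each panel plots log2(FPKM + 1) of 1 gene by library at P21, P60, Y1 and Y2 with a bar for the mean of 2. Cyp17a1 is high at P21 and P60 and low at Y1 and Y2, H2-Eb1 and Gpnmb are lowest at Y1, Akr1c18 and Dhcr7 have their highest mean at Y1, and the points for Star, Hsd17b7 and Dhcr7 are far apart at Y2 and those for Adipoq at Y1.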

How the data were processed

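Values were FPKM per gene, deposited by the authors in 1 table of Ensembl genes for 22 libraries. The tools HISAT2, StringTie and edgeR and the build mm10 are listed per the submitters' processing notes, while the series text names TopHat, and which aligner gave the FPKM is not settled here. How strand and multi-mapped reads were handled is not given here.

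Genes that reached 1 FPKM in 2 or more libraries were fitted with limma 3.58.1 in R 4.3.3 (lmFit, eBayes with trend) on log2(FPKM + 1), age as a factor of 11 levels, 11 residual degrees of freedom, Benjamini-Hochberg adjustment and a threshold of 0.05. No count test was run, because most genes' reads cannot be recovered from FPKM. Depth came from single-transcript genes under 0.2 FPKM, of whose values 94.5% to 97.1% were whole within 0.02 reads, with 11480000 to 18140000 reads per library; 1 FPKM at 2 kb stands for 30.6 to 36.3 reads at Y1 and P60. Coordinates are GENCODE on GRCm38, the build of mm10.

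Named genes are the 12 largest called increases and decreases with a group mean of at least 10 FPKM and no overlap, the 2 largest differences of each of 29 lists, and defining members, 91 in all. Members and lists were chosen with earlier results of these data known. Python 3.11.15 and pandas 2.3.3 handled tables, and scripts were tested on simulated data. Some list members are not reported here by name.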

Additional observations from a re-analysis of the deposited data

How the results depend on the processing

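Counts of higher and lower genes at Y1, 718 and 1608, moved by over 1.5 times in the following fits. Leaving the Y2 libraries out of the fit gave 1224 higher and 2638 lower, and a fit to P60, Y1 and Y2 alone gave 57 and 100. The latter fit called no gene of the corpus luteum, cholesterol, growing oocyte, macrophage or B and plasma cell lists. It called 2 granulosa genes and 1 matrix gene of the collagen list, all lower. Leaving out 1 of the 4 compared libraries gave 350 to 451 higher and 614 to 982 lower, with the lone library assumed to vary like the other ages. The other fits, with pseudocounts of 0.1 or 0.5, other filters, the 4 libraries alone, other scalings and mitochondrial genes left out, gave 642 to 1024 higher and 1108 to 2097 lower. With a replicate block the counts were 669 and 1505. The deviations of same-numbered Y1 and P60 libraries correlated at −0.03, but this 1 correlation cannot tell if the numbers pair samples. Of 91 named genes the 60 called kept their direction in every fit. None of the others was called in the direction opposite to its main value. Of the 60 called, 0 lost the call without Y2, 19 to 22 without 1 library and 51 in the fit to P60, Y1 and Y2 alone, and 29 kept it in every fit but that one. At an unadjusted p under 0.05, 4599 genes passed. Low values rest on few reads, and 2 libraries per age limit every estimate of spread.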

Other observations

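Dbp, Nr1d1, Per3, Per2 and Arntl are genes of the circadian clock that belong to no list above and were picked after their values were seen, so the calls below say nothing of the clock genes as a group. Dbp, an output gene of the clock, had 32.8 and 35.8 FPKM at Y1, against 4.08 and 5.44 FPKM at P60 (7.20-fold higher, limma, adjusted p = 7.17e-07). Nr1d1, the repressor REV-ERB alpha, had 39.3 and 32.2 FPKM at Y1, against 10.5 and 13.2 FPKM at P60 (adjusted p = 2.25e-05). Per3, a period gene, had 9.83 and 10.8 FPKM at Y1, against 3.05 and 3.12 FPKM at P60 (adjusted p = 2.25e-05). Per2 had 9.61 and 10.7 FPKM at Y1, against 3.63 and 4.02 FPKM at P60 (adjusted p = 0.000355). These 4 calls were kept when any 1 of the 4 libraries was left out.

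Arntl, the activator BMAL1, was lower, with 4.90 and 3.13 FPKM at Y1 against 8.89 and 9.52 FPKM at P60 (adjusted p = 0.00716, and 0.0803 or 0.0572 without Y1 replicate 2 or P60 replicate 2). Its partner Clock was not called, with 4.91 and 3.66 FPKM at Y1 and 4.61 and 5.85 FPKM at P60 (adjusted p = 0.438). At Y2 Dbp had 48.0 and 29.6 FPKM and was not called against Y1 (adjusted p = 0.671). The labels give no hour of dissection, which cannot be told apart from age here.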
